A study of Mus musculus with 10 samples.

Results

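Apolipoprotein E, 2 of its receptors and the liver X receptor (LXR) circuit around it were examined in the cultured mouse melanoma line WT31 and its subline WT31_P5IV. The 9 genes were Apoe and Apoc1, which encode apolipoproteins, Lrp1 and Lrp8, which encode receptors, Nr1h2 and Nr1h3, which encode the LXRs, and Abca1, Abcg1 and Mylip, which are LXR target genes. They are 9 of 55385 genes in the deposited tables and were picked by name, with the contrast between both lines already known, so their differences are given as a description. Where their edgeR calls are counted, the calls are no independent evidence. WT31 comes from Tyr::NrasQ61K/°; INK4a-/- mice, so both groups share an NRAS mutation driven by the tyrosinase promoter and the loss of INK4a. WT31_P5IV was made from WT31 by 5 rounds of intravenous injection and recovery from the liver. It is 1 subline, so the effect of passaging cannot be told apart from what sets this subline apart. Each group had 5 RNA-seq libraries of untreated cells from culture with 10% fetal calf serum, and none was made from a metastasis. The labels give 50% confluence for the cells of both groups, while the submitters' design text gives a wider range. The labels call the libraries of a group biological replicates without naming separate cultures, so the spread between them may be partly technical.

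Apolipoprotein E coats lipoprotein particles and is bound and taken up by receptors of the lipoprotein receptor family. LXRs are nuclear receptors that are switched on by oxysterols, pair with a retinoid X receptor and raise transcription of genes that move cholesterol out of cells. Apoe itself, the cholesterol exporters Abca1 and Abcg1 and the receptor-degrading ubiquitin ligase Mylip are textbook LXR targets. In melanoma, secreted apolipoprotein E is known as a restraint on invasion and endothelial recruitment that acts through Lrp1 on tumor cells and Lrp8 on endothelial cells.

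LXRs bind pairs of AGGTCA-like half-sites in direct repeat, and the Abca1 promoter is a known carrier of such an element. The 250 bases upstream of the start site are shown for Apoe, which differed most between the lines, and for Abca1 and Mylip, the LXR targets that differed in opposite directions. The sequences are RefSeq promoters of GRCm38.p6, written 5′ to 3′ on the strand of the gene. Capitals mark every match to 7 motifs searched on both strands (in a repeat, its specified letters). The half-site is spelled AGGTCA, and the strict repeat is the half-site present in direct repeat with 4 unspecified letters between the copies. The GC box is spelled GGGCGG, the core promoter box is spelled TATAAA, the E-box, which reads alike on both strands, is spelled CACGTG, and the AP-1 motif is spelled TGAGTCA. The looser repeat is spelled GGTNA, followed after 5 unspecified letters by the ending GGTCA, and was added after the sequences were seen. Every match to the strict repeat is also a match to the half-site and to the looser repeat.
Apoe, chr7:19699189-19699438, minus strand: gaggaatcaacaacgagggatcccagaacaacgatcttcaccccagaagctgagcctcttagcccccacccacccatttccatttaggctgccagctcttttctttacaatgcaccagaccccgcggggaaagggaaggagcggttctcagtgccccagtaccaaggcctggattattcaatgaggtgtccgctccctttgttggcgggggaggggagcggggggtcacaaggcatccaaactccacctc
Abca1, chr4:53159896-53160145, minus strand: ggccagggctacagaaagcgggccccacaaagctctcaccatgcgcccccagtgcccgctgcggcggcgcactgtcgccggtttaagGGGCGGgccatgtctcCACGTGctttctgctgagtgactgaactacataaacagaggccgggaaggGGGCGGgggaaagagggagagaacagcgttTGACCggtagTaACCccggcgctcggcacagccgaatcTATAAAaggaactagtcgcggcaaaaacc
Mylip, chr13:45389492-45389741, plus strand: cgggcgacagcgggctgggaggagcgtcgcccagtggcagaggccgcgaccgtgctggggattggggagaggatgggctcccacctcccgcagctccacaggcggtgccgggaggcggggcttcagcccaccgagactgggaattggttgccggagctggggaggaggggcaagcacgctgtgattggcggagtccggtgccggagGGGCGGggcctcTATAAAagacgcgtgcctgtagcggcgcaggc

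The Apoe window held none of the 7 motifs, while the Abca1 window held 4 of them. In Abca1, the core promoter box began 29 bases upstream of the start site, the looser repeat lay on the opposite strand from 67 bases upstream, the E-box began 147 bases upstream, and GC boxes began 97 and 163 bases upstream. In Mylip, the core promoter box began 32 and a GC box 44 bases upstream. The looser repeat was present in 0.177% of 32851 mouse promoter windows of this length and the strict repeat in 0.0152%. The half-site was present in 14.0%, the GC box in 32.7%, the core promoter box in 12.4%, the E-box in 6.02% and the AP-1 motif in 4.46%. RefSeq windows were found for 7 of the 9 genes, 12 windows in all because several genes have more than 1 start site, and none for Apoc1 or Abcg1. Among the remaining windows, a GC box was found in Lrp1, a half-site in Lrp8 and a core promoter box in a window of Apoe whose start site lies inside the gene. A match says only that these letters are present and a missing match only that they are not in this window.

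The depth was 24825671 to 25750639 estimated counts for WT31 and 24255389 to 25547694 for WT31_P5IV, with p = 0.230 by an exact permutation test of the totals (5 against 5 libraries, two-sided). Levels below are given as CPM, the counts of a gene per 1000000 counts of the scaled library, or as TPM, its share of 1000000 transcripts, where genes are compared with each other, since TPM also accounts for transcript length. A difference is given as the log2 fold change of WT31_P5IV in comparison to WT31 with its standard error (SE) from edgeR, fitted over the 13620 genes that passed a filter on low counts. The melanocyte markers fixed for this comparison were all expressed, with summed levels of 19058 to 20756 CPM in WT31 and 25508.7 to 29556.2 CPM in WT31_P5IV. Of the 8 markers, 4 were higher (Dct, Tyr, Pmel and Gpnmb), 2 were lower (Tyrp1, from 3041 to 1564 CPM, and Sox10, with a log2 fold change of -0.14) and 2 were not past the threshold (Mitf, -0.01, and Mlana, 0.01).

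Of the 9 genes, 6 passed the filter, and 3 (Apoc1, Abcg1 and Nr1h3) had too few counts. With an edgeR adjusted p under 0.05 as the threshold, 5 of the 6 were past it with higher and 1 with lower counts in WT31_P5IV. Over all tested genes 68.5% were past this threshold, 34.6% with higher and 33.9% with lower counts in WT31_P5IV. No CPM value of either group lay within the range of the other for 5 of the 9 genes, namely Apoe, Lrp1, Abca1, Nr1h2 and Mylip, beside 54.1% of all tested genes. Because the genes were chosen with this contrast known, nothing is read from these counts, and only the size of each difference is described. The median absolute log2 fold change of all tested genes was 0.30. The plot of each gene in all 10 libraries shows the separation of Apoe and the overlap of Lrp8, Abcg1 and Nr1h3.

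**Figure D1:**
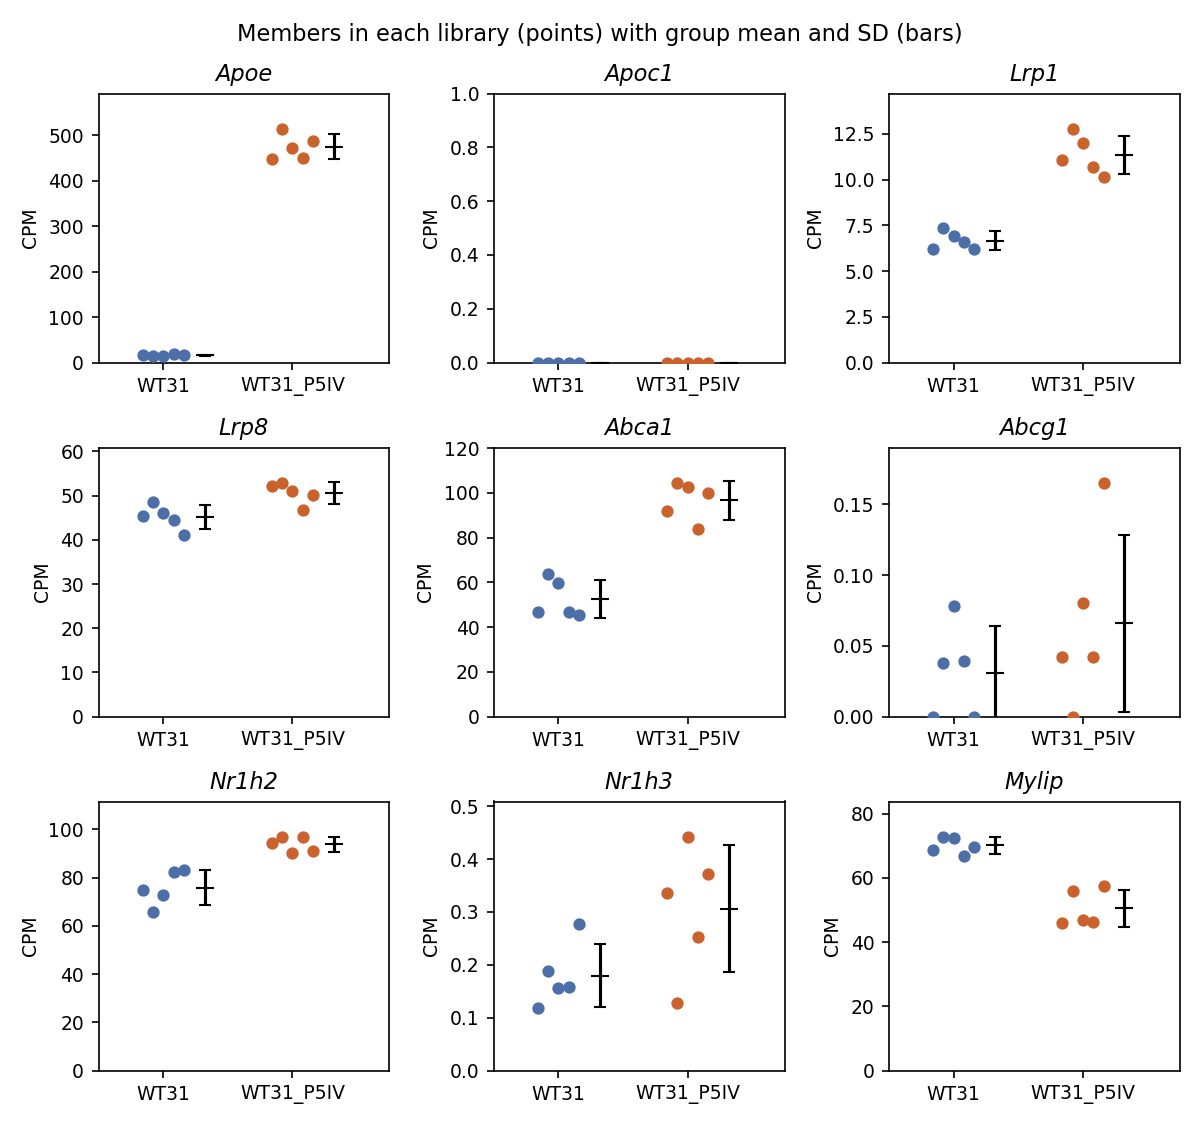
Level of each of the 9 genes in CPM (linear axis from 0) in the 5 libraries of WT31 (blue points) and the 5 of WT31_P5IV (orange points), with the group mean and SD as black bars. Apoe lies at 14.4 to 18.4 CPM in WT31 and at 448 to 514 CPM in WT31_P5IV, Mylip is lower in all 5 WT31_P5IV libraries, and Apoc1 is at 0 in every library.

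Apoe (ENSMUSG00000002985.16, chr7:19696109-19699188, minus strand) was the member with by far the greatest difference. The 5 WT31 libraries held 16.1, 14.4, 14.5, 18.4 and 16.6 CPM, and the 5 WT31_P5IV libraries held 448, 514, 472, 449 and 487 CPM. The highest WT31 library was thus far below the lowest WT31_P5IV library. Behind these levels stood 370 to 469 estimated counts in the WT31 libraries and 10660 to 11991 in those of WT31_P5IV. The mean went from 16.0 ± 1.66 CPM (SD, n = 5) to 474 ± 27.8 CPM (SD, n = 5), a log2 fold change of 4.89 (SE 0.07) or 29.6-fold. Of all tested genes, 0.360% had a greater absolute log2 fold change. In TPM, Apoe stood at 27.8 ± 2.23 (SD, n = 5) in WT31, above 63.1% of tested genes, and at 733 ± 52.7 (SD, n = 5) in WT31_P5IV, above 98.8% of them. Leaving out any single library gave a log2 fold change between 4.84 and 4.93. Apoe overlapped no other annotated gene.

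Apoe is also made in quantity by macrophages and hepatocytes, so the markers of these cells are given beside it. Among 10 macrophage and leukocyte markers, C1qa, C1qb, Cd14 and Clec4f were at 0 in all 10 libraries and 7, these included, had at most 3 counts in every library. The summed level of the 10 was 4.84 to 6.68 CPM in WT31 and 4.22 to 6.24 CPM in WT31_P5IV. The sum joins markers that moved in opposite directions: of the 2 that were tested, Cd68, a lysosomal membrane protein, rose from 1.37 to 3.74 CPM while Lyz2, lysozyme, fell from 4.33 to 1.08 CPM. Among 8 hepatocyte markers, Serpina1a, Cyp3a11, Fgb and Tat were at 0 in all libraries, and the sum was 0.227 to 0.554 CPM in WT31 and 0.442 to 1.18 CPM in WT31_P5IV. Albumin (Alb) had 9 counts in replicate 1 of WT31_P5IV and 0 in the other libraries. Apoa1, an apolipoprotein of HDL, had 4, 2 and 3 counts in replicates 1, 2 and 5 of WT31_P5IV and 0 in the other libraries, those of WT31 included. Among 6 endothelial markers, Cdh5 and Lyve1 were at 0 and the sum did not pass 0.421 CPM in any library. The 6 stellate cell and fibroblast markers summed to 1.97 to 2.63 CPM in WT31 and 3.12 to 3.62 CPM in WT31_P5IV, with Acta2 (log2 fold change 1.47, SE 0.32) and Col1a1 (1.00, SE 0.18) higher. The other 4 had lower means in WT31_P5IV: Lrat went from 0.171 to 0.0674, Des from 0.234 to 0.209 and Dcn from 0.157 to 0.134 CPM without being tested, and Pdgfrb, at 0.52 and 0.46 CPM, was not past the threshold (-0.19, SE 0.32). Their part in the Apoe difference was not tested. In these bulk libraries, a different share of cells with a transcript and a different amount per cell cannot be told apart.

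Apoc1 (ENSMUSG00000040564.14, chr7:19689481-19692660, minus strand) encodes a small apolipoprotein that is carried on the same particles and lies 3449 bases from Apoe. It had 0 estimated counts in each of the 10 libraries. A count of 0 allows up to 3 counts, which is 0.114 to 0.129 CPM depending on the library. At this depth Apoc1 was therefore not detectable in either line.

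The other genes around Apoe on chromosome 7 were looked at in order of position, 10 annotated genes on each side. Of these, 19 besides Apoe had values in the tables and 8 were tested, of which 6 were higher in WT31_P5IV, 0 lower and 2 not past the threshold, beside 34.6% higher and 33.9% lower over all tested genes. With limma on TPM, 5 of them were higher. No neighbour was lower at an unadjusted p under 0.05 either, by edgeR, DESeq2 or limma. The median log2 fold change of the 8 was 0.44 beside 0.01 for all tested genes and 4.89 for Apoe. The 5 with the greatest differences were Nectin2, an adhesion molecule (0.92, SE 0.06), Clasrp, a splicing-related protein (0.73, SE 0.05), Clptm1, a membrane protein (0.71, SE 0.05), Bcam, a laminin-binding adhesion molecule (0.53, SE 0.15), and Relb, an NF-kappaB subunit (0.36, SE 0.09). Tomm40, a mitochondrial import pore, is the nearest tested gene at 2125 bases from Apoe and was named after its values were seen. It rose from 96.9 ± 11.5 CPM (SD, n = 5) in WT31 to 123 ± 2.05 CPM (SD, n = 5) in WT31_P5IV, a log2 fold change of 0.34 (SE 0.06). The apolipoprotein genes of this cluster were not tested. Apoc2 had 1 count in 1 WT31 library and 0 in the others, and Apoc4 had 0 to 8 counts in WT31 and 4 to 10 in WT31_P5IV.

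**Figure D2:**
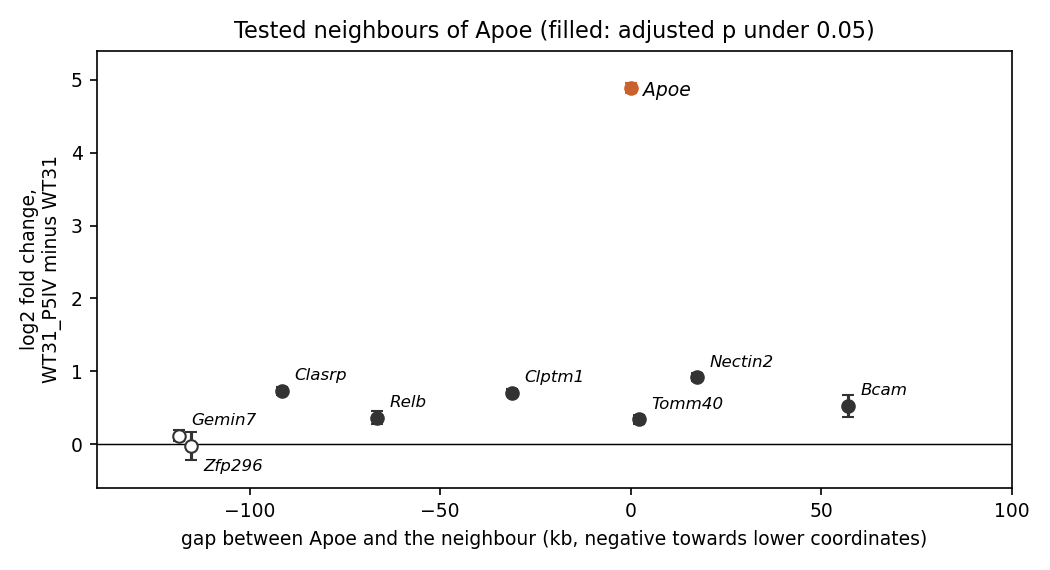
The log2 fold change (y axis, WT31_P5IV minus WT31, with SE bars) of Apoe (orange) and its 8 tested neighbours (black; open points are not past an adjusted p of 0.05) by their gap to Apoe in kb (x axis, negative towards lower coordinates). Apoe stands at 4.89, and the neighbours lie between -0.03 and 0.92.

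The 5 genes whose log CPM over the 10 libraries was most like that of Apoe were Ogdhl (Pearson's r 0.9993, n = 10), Plekha7 (0.9991), Syn2 (0.9989), Capg (0.9988) and Plagl1 (0.9988). These correlations were set by the difference between both groups, which all libraries share, and carry no test. The size of the difference was close to that of Apoe for Capg, which encodes an actin-capping protein (log2 fold change 5.50, SE 0.12), and for Plagl1, a zinc finger transcription factor (5.03, SE 0.06). It was smaller for Ogdhl (1.50, SE 0.04), Plekha7 (1.88, SE 0.05) and Syn2 (1.86, SE 0.04).

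Lrp1 (ENSMUSG00000040249.15, chr10:127538161-127621148, minus strand) encodes a large endocytic receptor that binds apolipoprotein E, protease complexes and matrix proteins. WT31 libraries held 6.19, 7.38, 6.94, 6.60 and 6.22 CPM and WT31_P5IV libraries 11.1, 12.8, 12.0, 10.7 and 10.2 CPM. All WT31_P5IV libraries were above all WT31 libraries. The mean went from 6.67 ± 0.504 CPM (SD, n = 5) to 11.3 ± 1.05 CPM (SD, n = 5), a log2 fold change of 0.77 (SE 0.08). In TPM the groups overlapped, with 1.44 to 5.31 in WT31 and 2.61 to 5.12 in WT31_P5IV, and the log2 fold change was 0.40 on log2(TPM + 0.1) and 0.30 on log2(TPM + 1). In both of these 2 settings out of 18, Lrp1 was no longer past the threshold. The ratio of counts to TPM, looked at after the data were seen, which follows the length of the transcripts the reads were assigned to, varied between Lrp1 libraries with an SD of 0.74 in WT31 on the log2 scale, compared with 0.03 for Apoe. A gene model on the opposite strand, Gm16217, overlaps Lrp1, and reads of both may not be fully separable. Of the 31-base words of Lrp1 transcripts, 0.0112% also occur in other genes.

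Lrp8 (ENSMUSG00000028613.15, chr4:107802261-107876840, plus strand), also known as the apolipoprotein E receptor 2 gene, encodes a receptor for apolipoprotein E, reelin and selenoprotein P. WT31 libraries held 45.3, 48.5, 46.1, 44.5 and 41.1 CPM and WT31_P5IV libraries 52.2, 52.9, 51.0, 46.7 and 50.0 CPM. The ranges overlapped, as replicate 4 of WT31_P5IV lay below the highest WT31 library. The mean went from 45.1 ± 2.70 CPM (SD, n = 5) to 50.6 ± 2.45 CPM (SD, n = 5), a log2 fold change of 0.16 (SE 0.05). This difference was smaller in absolute size than that of 70.3% of tested genes. It lost its side of the threshold in 4 of 18 other settings, with log2 fold changes of 0.10 to 0.16 there. The antisense genes Lrp8os1 and Lrp8os2 overlap it.

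Nr1h2 (ENSMUSG00000060601.13, chr7:44549616-44553951, minus strand) encodes LXR beta, the broadly expressed LXR. WT31 libraries held 75.0, 65.8, 72.9, 82.1 and 83.3 CPM and WT31_P5IV libraries 94.2, 96.8, 90.2, 97.0 and 91.0 CPM. The groups did not overlap, and the WT31_P5IV libraries were closer together than the WT31 libraries. The mean went from 75.8 ± 7.16 CPM (SD, n = 5) to 93.8 ± 3.16 CPM (SD, n = 5), a log2 fold change of 0.31 (SE 0.06), near the median absolute difference of all tested genes.

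Nr1h3 (ENSMUSG00000002108.10, chr2:91184061-91202834, minus strand) encodes LXR alpha, which is typical of liver, fat and macrophages. It had 3, 5, 4, 4 and 7 counts in WT31 and 8, 3, 11, 6 and 9 counts in WT31_P5IV. These overlapping ranges correspond to 0.180 ± 0.0602 CPM (SD, n = 5) and 0.306 ± 0.121 CPM (SD, n = 5), and the gene was not tested. In TPM, Nr1h2 stood at 68.7 ± 3.74 in WT31 and 79.2 ± 0.770 in WT31_P5IV (SD, n = 5 each), while Nr1h3 stood at 0.203 ± 0.0753 and 0.418 ± 0.156. In both lines, LXR transcripts were therefore mostly those of Nr1h2.

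Abca1 (ENSMUSG00000015243.4, chr4:53030787-53159895, minus strand) encodes the transporter that loads cholesterol and phospholipid onto lipid-poor apolipoproteins. WT31 libraries held 46.6, 63.9, 59.7, 47.0 and 45.4 CPM and WT31_P5IV libraries 91.8, 105, 103, 84.0 and 100.0 CPM. The groups did not overlap, although WT31 replicates 2 and 3 were higher than the other 3 libraries of that line. The mean went from 52.5 ± 8.62 CPM (SD, n = 5) to 96.6 ± 8.60 CPM (SD, n = 5), a log2 fold change of 0.88 (SE 0.09) or 1.84-fold. It was the second greatest difference among the 6 tested members, and 11.8% of tested genes had a greater absolute one.

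Abcg1 (ENSMUSG00000024030.7, chr17:31057675-31117988, plus strand) encodes the transporter that passes cholesterol to mature HDL particles. It had 0, 1, 2, 1 and 0 counts in WT31 and 1, 0, 2, 1 and 4 counts in WT31_P5IV. All libraries but replicate 5 of WT31_P5IV were thus at or below the 3 counts that a count of 0 allows, and no fold change is given. Of both LXR-controlled exporters, only Abca1 was measurable at this depth.

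Mylip (ENSMUSG00000038175.10, chr13:45389742-45412022, plus strand) encodes a ubiquitin ligase that marks lipoprotein receptors, Lrp8 among them, for degradation. WT31 libraries held 68.7, 72.8, 72.5, 66.7 and 69.7 CPM and WT31_P5IV libraries 45.9, 56.0, 46.9, 46.2 and 57.6 CPM. It was the only one of the 6 tested members that was lower in WT31_P5IV, and the highest WT31_P5IV library lay below the lowest WT31 library. The mean went from 70.1 ± 2.60 CPM (SD, n = 5) to 50.5 ± 5.76 CPM (SD, n = 5), a log2 fold change of -0.47 (SE 0.06). Among the 3 LXR target genes of the transport and degradation arm, Abca1 was thus higher, Mylip lower and Abcg1 not measurable.

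**Figure D3:**
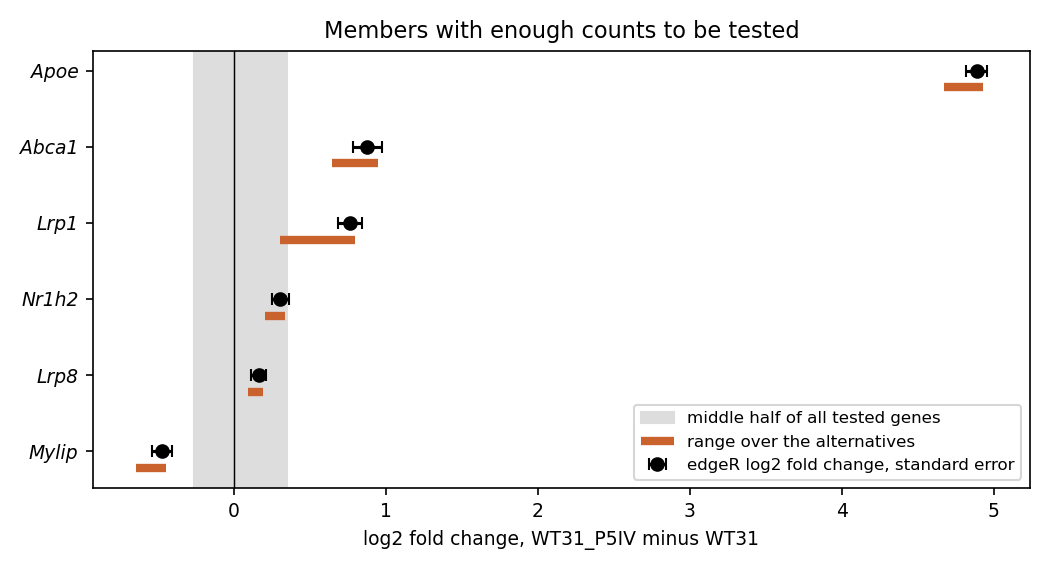
The log2 fold change (x axis, WT31_P5IV minus WT31) of the 6 tested members from edgeR with SE (black), the range over all other settings tried (orange bars), and the range between the lower and upper quartile of all 13620 tested genes, -0.26 to 0.35 (grey). Apoe, Abca1, Lrp1 and Mylip lie outside the grey band and Nr1h2 and Lrp8 inside it, and the orange bar of Lrp1 reaches down to 0.30.

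Compared per length, the order of the members changed at the top only. In WT31 the mean TPM fell from Nr1h2 (68.7) over Mylip (36.5), Apoe (27.8), Lrp8 (15.2), Abca1 (7.87), Lrp1 (3.23) and Nr1h3 (0.203) to Abcg1 (0.0350) and Apoc1 (0). In WT31_P5IV Apoe (733) came first, followed by Nr1h2 (79.2), Mylip (23.4), Lrp8 (17.0), Abca1 (12.8), Lrp1 (4.07), Nr1h3 (0.418), Abcg1 (0.0640) and Apoc1 (0). Neighbours in either order did not overlap over the 5 libraries except Abcg1 and Apoc1. Apoe thus moved from the third to the first place while the order of the other 8 genes was the same in both lines.

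LXR target genes beyond the members were taken from a list of 18, of which 12 were tested. Of these 12, 6 were higher in WT31_P5IV and 5 lower, beside 34.6% and 33.9% of all tested genes. The median log2 fold change was 0.11 beside 0.01 for all tested genes. It was -0.08 with a filter of at least 1 count over the libraries, 0.04 to 0.05 with limma on unscaled counts or TPM, and 0.25 with at least 10 counts in every library. The greatest increases were in Mlxipl, a glucose-responsive transcription factor (1.84 ± 0.352 to 19.5 ± 1.75 CPM, SD, n = 5, log2 fold change 3.40, SE 0.11), Srebf1, the transcription factor of fatty acid synthesis (136 ± 4.41 to 274 ± 15.2 CPM, 1.01, SE 0.04), and Pltp, a phospholipid transfer protein (7.15 ± 0.752 to 12.0 ± 0.681 CPM, 0.75, SE 0.07). The greatest decreases were in Cyp7a1, the rate-limiting enzyme of bile acid synthesis (49.0 ± 3.18 to 17.1 ± 0.836 CPM, -1.52, SE 0.05), Abcg8, a sterol transporter subunit (0.961 ± 0.123 to 0.410 ± 0.112 CPM, -1.23, SE 0.21), and Scd1, a fatty acid desaturase (552 ± 23.8 to 343 ± 10.7 CPM, -0.69, SE 0.04). Abcg5, the partner of Abcg8, had at most 1 count in any library. Abcg8 and Abcg5 overlap on opposite strands, Pltp overlaps Ctsa, and 13.9% of the 31-base words of Pltp transcripts also occur in other genes.

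Among 16 LXR partners and cofactors, 14 were tested, 3 were higher and 6 lower, beside 34.6% and 33.9% of all tested genes. Their median log2 fold change was -0.08 beside 0.01 for all tested genes. With limma voom on unscaled counts 8 were lower (median -0.15), and with upper-quartile scaling 4 were lower (median -0.05). Rxrb, a retinoid X receptor with which LXRs pair, rose most (31.8 ± 2.50 to 52.8 ± 2.63 CPM, SD, n = 5, log2 fold change 0.73, SE 0.05), followed by the corepressor complex subunit Gps2 (0.25, SE 0.07) and the coactivator Ncoa3 (0.20, SE 0.05). The corepressor Ncor1 (-0.35, SE 0.06) and its complex partners Tbl1xr1 (-0.33, SE 0.06) and Tbl1x (-0.32, SE 0.04) fell most. Each of these decreases was smaller on the log2 scale than the difference of Mylip.

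Among 19 genes of oxysterol and cholesterol handling, 14 were tested, 9 were higher and 3 lower, beside 34.6% and 33.9% of all tested genes. The median log2 fold change was 0.56 beside 0.01 for all tested genes. The transporter Abca2 (0.92, SE 0.05), the cholesterol-esterifying plasma enzyme Lcat (0.90, SE 0.19) and the transporter Abca7 (0.84, SE 0.05) rose most. Gramd1b (-0.72, SE 0.08) and Stard4 (-0.50, SE 0.06), which carry sterols between membranes, and the lysosomal cholesterol carrier Npc2 (-0.18, SE 0.04) fell. Cyp27a1, which makes 27-hydroxycholesterol, an LXR ligand, did not pass the filter and was named after its values were seen: it had 1 to 2 counts in WT31 and 10 to 22 in WT31_P5IV. Ch25h, which makes 25-hydroxycholesterol, had at most 1 count in any library.

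Among 18 other lipoprotein receptors and binding proteins, 13 were tested, 10 were higher and 0 lower by edgeR's test, beside 34.6% and 33.9% of all tested genes, with a median of 0.48 beside 0.01 over all of them. No tested gene of this list was lower at an unadjusted p under 0.05 by edgeR, DESeq2 or limma. The smallest log2 fold changes, 0.06 for Lrp11 and 0.06 for Sdc4, were not past the threshold and were below 0 with limma on unscaled counts (-0.02 and -0.01) and on log2(TPM + 0.1) (-0.14 and -0.11). Lrp5 (38.6 ± 0.456 to 89.0 ± 6.84 CPM, SD, n = 5, log2 fold change 1.21, SE 0.05) and Lrp6 (80.6 ± 13.5 to 156 ± 13.2 CPM, 0.95, SE 0.09), the Wnt coreceptors, and Lrp4 (26.2 ± 1.76 to 49.8 ± 2.68 CPM, 0.92, SE 0.05), a receptor of the neuromuscular junction, rose most. Lrp8, at 0.16, lay below the median of this list, and Lrp1, at 0.77, above it. Trem2 was at 0.71 (SE 0.31) and not past the threshold either, and Lrp1b, Lrp2, Sorl1, Cd36 and Stab1 had too few counts to be tested.

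Among 15 other apolipoprotein genes, 3 were tested and all 3 fell past the threshold, as did 33.9% of all tested genes. Apod, which encodes a lipocalin rather than a classical apolipoprotein, fell from 338 ± 17.2 CPM (SD, n = 5) to 59.6 ± 4.54 CPM (SD, n = 5), a log2 fold change of -2.50 (SE 0.05). The mitochondrial proteins Apoo (-0.28, SE 0.05) and Apool (-0.17, SE 0.05) are named as apolipoproteins but act in the inner membrane, and 43.3% of the 31-base words of Apoo also occur in other genes. The remaining 12 genes were not tested, and Apoa4, Apoa5, Apoc3 and Clu were at 0 in every library. Among the apolipoprotein genes examined here, Apoe was thus the sole one of the classical lipoprotein particle proteins that passed the filter.

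Of 11 genes of Lrp8 signaling and the reelin pathway, 8 were tested. Of these 8, 2 were higher and 5 lower, beside 34.6% and 33.9% of all tested genes, with a median of -0.25 beside 0.01. The receptor Vldlr (0.39, SE 0.06), which is also in the receptor list, and the exchange factor Rapgef1 (0.16, SE 0.04) rose. The adaptors Crkl (-0.66, SE 0.05) and Crk (-0.45, SE 0.04) and Pafah1b1 (-0.48, SE 0.06), the Lis1 protein, fell most. Reelin itself (Reln) had at most 2 counts in any library, and Dab1, the adaptor that binds the Lrp8 tail, was at 0 throughout.

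Of 15 Lrp1 ligands and partners, 11 were tested, 7 were higher and 3 lower, beside 34.6% and 33.9% of all tested genes. Their median was 0.21 beside 0.01 for all tested genes. With limma on TPM, 4 were higher and 4 lower, with a median of 0.04. The receptor chaperone Lrpap1 (0.43, SE 0.04) and thrombospondin 1 (Thbs1, 0.40, SE 0.05) rose most among the tested genes. Thrombospondin 2 (Thbs2) did not pass the filter and was named after its values were seen: it had 0 to 1 counts in WT31 and 5 to 9 in WT31_P5IV. The matrix protein gene Ccn2 fell from 22.3 ± 1.60 CPM (SD, n = 5) to 8.10 ± 0.800 CPM (SD, n = 5), a log2 fold change of -1.46 (SE 0.07), followed by the urokinase receptor Plaur (-0.66, SE 0.20) and the coagulation inhibitor Tfpi (-0.23, SE 0.06). Gm15270 overlaps Ccn2 on the opposite strand, and 19.7% of the 31-base words of Ccn2 also occur in other genes.

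**Figure D4:**
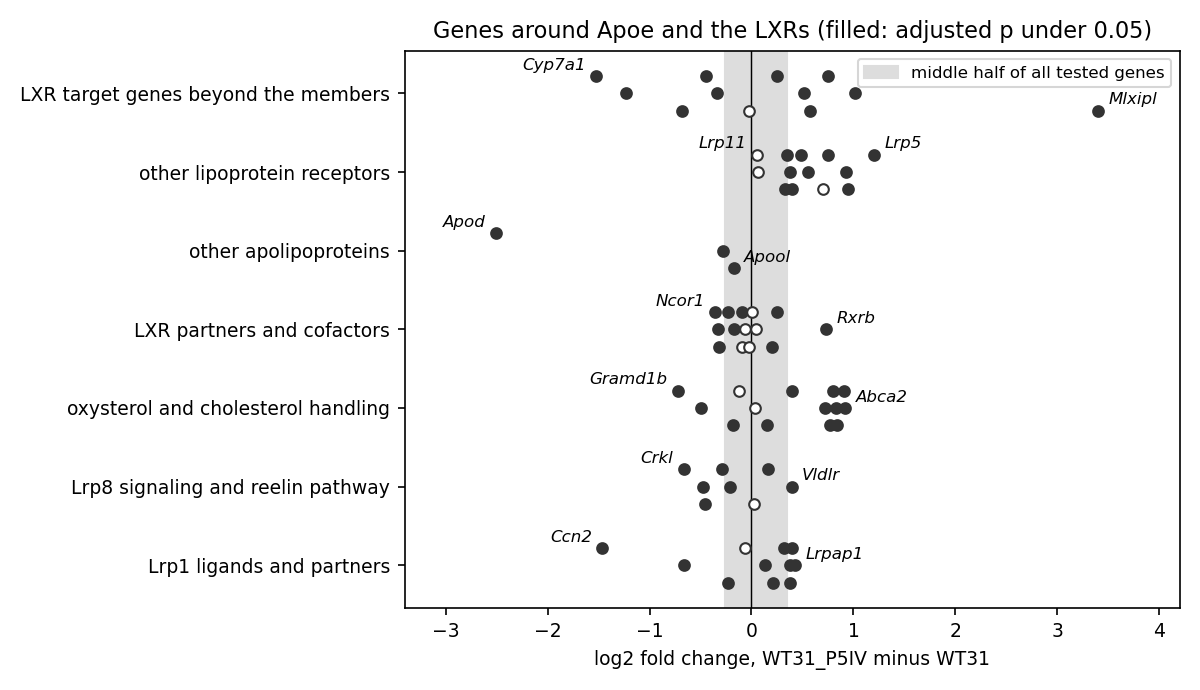
The log2 fold change (x axis, WT31_P5IV minus WT31) of each tested gene in 7 lists around the members, one list per row, with filled points for an edgeR adjusted p under 0.05, open points for the rest, and the range between the quartiles of all tested genes in grey. Mlxipl at 3.40 and Apod at -2.50 stand farthest out, and the 13 tested receptors lie between 0.06 and 1.21.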

How the data were processed

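RNA-seq libraries of WT31 (5) and WT31_P5IV (5), all from cultured cells, were compared. According to the labels, libraries were prepared by a BGISeq-500 protocol, while the design text names an Illumina HiSeq instrument. The authors trimmed reads with Trim Galore 0.6.4 and assigned them to transcripts of GRCm38.p6 with kallisto (version 0.4.6 in the submitters' processing notes, while the study's methods give another version), and deposited 1 table of estimated counts per gene for each library. The authors also deposited TPM per gene for each library, which are scaled by transcript length and by the library total. No strand setting is given in the sources used here.

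The 55385 identifiers were named through GENCODE M21, of which 55144 matched without the version number. For the test, each deposited estimated count was rounded to an integer, and edgeR 4.0.16 (filterByExpr, TMM scaling, quasi-likelihood test, Benjamini-Hochberg adjustment over 13620 genes, threshold 0.05) was run in R 4.3.3 with the group as the only term. The SE of a log2 fold change was taken from the F statistic. CPM used the scaled library sizes. On simulated counts for this comparison with 13620 genes, 90 of 100 genes changed 2-fold and 97 of 100 changed 4-fold were found. Of the 201 calls, 14 were false. Far fewer genes were changed there than the 68.5% called in the real data, so error control under such broad change was not checked. Alternatives were DESeq2 1.42.0, limma 3.58.1 (voom without scaling, and on log2(TPM + 0.1) and log2(TPM + 1)), upper-quartile scaling, a filter of at least 1 count over the libraries or 10 in each of them, a replicate block, and leaving out each library.

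The members and lists were chosen with earlier results of these data known. In each list the up to 3 greatest increases and decreases past the threshold are named, the 5 greatest differences among neighbours, the 5 genes most like Apoe, and markers at 0. 1 gene that this rule names is not reported here. Gene overlap and shared 31-base words were read from GENCODE M21, promoters from RefSeq GRCm38.p6. Counting error alone sets the limit of 3 counts for a count of 0.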

Additional observations from a re-analysis of the deposited data

Results flagged for a closer look

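In groups of 5 libraries, 105 sets of values were checked for a single library standing apart, and chance gives about 1 in 20 such sets. Among these, 2 had a library whose gap to its nearest neighbour was more than 0.71 of the range of the group. Lcat, the cholesterol-esterifying enzyme, was at 0.983 CPM in replicate 4 of WT31 and at 1.73 to 1.96 CPM in the other libraries of that line. Abca7, a lipid transporter, was at 51.1 CPM in replicate 4 of WT31_P5IV and at 57.6 to 59.2 CPM in the other libraries of that subline. None of the 9 members had such a library.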

How the results depend on the processing

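The 6 tested members, the genes selected by rule from the lists and neighbours and those most like Apoe, 51 genes in all, kept their direction in each setting tried. Of the 916 values for them under other settings, 891 kept their side of the threshold and 25 lost it. On log2(TPM + 0.1) and log2(TPM + 1) the median of all genes lay 0.17 and 0.16 lower than in the count fit, and all tested genes higher in WT31_P5IV numbered 2915 and 2910 in place of 4709. In both TPM settings, 3 members were higher in place of 5, 1 gene of the Lrp8 and reelin list in place of 2, and 4 Lrp1 ligands and partners in place of 7. Lower calls rose there from 3 to 4 for the Lrp1 ligands and partners, from 5 to 6 for the Lrp8 and reelin list, from 5 to 6 for the LXR targets and from 6 to 7 for the LXR partners and cofactors. On log2(TPM + 1) the median was 0.04 in place of 0.21 for the Lrp1 ligands and partners, -0.40 in place of -0.25 for the Lrp8 and reelin list, -0.20 in place of -0.08 for the LXR partners and cofactors, 0.29 in place of 0.48 for the other receptors and 0.21 in place of 0.44 for the neighbours of Apoe. Other list genes turned sign in some settings. Lipa and Calr, called higher in the count fit, were below 0 on log2(TPM + 0.1) (-0.02 and -0.08), and Src went from 0.02 to -0.11 there and was called lower (adjusted p 0.030 by limma). With at least 1 count over the libraries as the filter, 1 other apolipoprotein was higher in place of 0, and 1 gene of the Lrp8 and reelin list in place of 2. Lrp1 lost its call in both TPM settings (adjusted p up to 0.22 by limma) and Lrp8 there, with voom and with this filter. Among 18 settings, Apoe lay between 4.67 and 4.93, Abca1 between 0.65 and 0.95, Nr1h2 between 0.21 and 0.34 and Mylip between -0.64 and -0.44. With the replicate block 9380 genes were called in place of 9327. Same-numbered libraries correlated at -0.10 to 0.18, only 1 of 5 pairs over 0.1. In either line, 2 of 5 libraries correlated best with their own number. No clear pairing by number was seen, but such correlations cannot show that there was none. Depth limits Apoc1, Abcg1 and Nr1h3, for which no change can be stated.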
